A study of Arabidopsis thaliana with 16 samples.

Results

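Cysteine-rich receptor-like kinases (CRKs) form a large family of plant membrane proteins, known for roles in pathogen defence, cell death, oxidative stress and abscisic acid responses. A CRK has an extracellular part with repeats of the DUF26 domain, a membrane span and a cytoplasmic kinase, and many of the genes stand side by side in tandem arrays. The genes described here are the protein-coding genes on chromosomes 1 to 5 whose annotated symbol is CRK followed by a number, which gave 40 genes of 27444. No measured value chose single genes. The family itself was selected on its H3K4me3 and H3K27me3 calls in these lists, so its calls and covered lengths are given as a description, with no test.

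The label was checked against the annotation's synonyms, which name 38 of the 40 as cysteine-rich RLKs. The other 2, CRK1 (AT2G41140) and CRK3 (AT2G46700), are CDPK-related kinases, relatives of calcium-dependent kinases that share only the letters of the symbol. They are kept in the counts because the rule includes them. In addition, 4 genes carry a cysteine-rich RLK synonym under another symbol and so are not members: RKF2 (AT1G19090), EP1 (AT4G23170, CRK9), EMB1290 (AT4G23250, CRK17) and ARCK1 (AT4G11890, CRK45).

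Sorted Arabidopsis thaliana guard cells went through ChIP-seq for H3K27me3, the mark of Polycomb-repressed chromatin, and H3K4me3, which marks the start regions of active genes. The 2 genotypes were wild type (WT) and fama-1, FAMAp:FAMA-LGK (FAMA-LGK below), a fama-1 mutant with FAMA-LGK under the FAMA promoter, which is active late in the stomatal lineage. Plants of both genotypes were 12 days post germination, kept at 22 °C in a day of 16 h light and 8 h dark. Aerial tissue of both was turned into protoplasts before the sort, and the sort's gate is not given in the sources used here. For every mark and genotype there were 2 ChIP libraries and 2 inputs, 16 libraries in all. The series contrasts differentiated with genetically reprogrammed guard cells.

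Each mark in each genotype has 1 deposited peak list for its 2 ChIP libraries, so there is no value per replicate, no error and no test between genotypes. A gene was called for a mark when peaks covered at least 150 bp of its body. Covered length counts the bp under peaks in the body and up to 500 bp beyond either end. The H3K27me3 lists held 7386 (WT) and 7652 (FAMA-LGK) peaks and the H3K4me3 lists 16036 and 15989. Read depth is unknown, so a difference in depth cannot be told apart from a difference in the mark. Of 11 guard cell marker genes, all were called for H3K4me3 in WT and 9 in FAMA-LGK, and their summed H3K4me3 covered length was 25618 bp in WT against 12003 bp in FAMA-LGK. The sum over 5 mesophyll marker genes, all called, was 7971 and 8475 bp. Over 3 pavement cell marker genes it was 4219 and 6121 bp, with 2 and 3 called and PDF1 at 0 in WT. In each of the trichome and vascular lists of 3, 1 gene was called for H3K4me3 and all 3 for H3K27me3, in both genotypes. Their summed H3K4me3 was 959 and 1024 bp (trichome) and 661 and 1423 bp (vascular, all at SUC2). Summed H3K27me3 was 1972 and 7010 bp over the guard cell markers, with 1 and 3 called. It was 982 and 755 bp (pavement cell), 9890 and 10063 bp (trichome), 6914 and 6900 bp (vascular) and 0 bp in both genotypes (mesophyll). The part of other cell types in the results below was not tested. The FAMA gene had 2886 and 627 bp of H3K4me3, and in FAMA-LGK reads of the construct and of the locus cannot be told apart.

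Across the family, H3K4me3 was listed on more genes and over longer stretches in FAMA-LGK than in WT, while H3K27me3 was listed on slightly fewer. For H3K4me3, 14 of the 40 genes were called in WT (35.0%; background 62.2% of all protein-coding genes) and 20 in FAMA-LGK (50%; background 62.2%). All 14 genes called in WT were called in both genotypes, as were 16526 of the 17082 protein-coding genes called in WT. Genes called in both were thus 35.0% of the members, against 60.2% of all protein-coding genes. A further 6 genes, or 15.0%, were called in FAMA-LGK alone, where the background was 1.99%. None was called in WT alone, where the background was 2.03%. For H3K27me3, 10 genes were called in WT (25%; background 24.4%) and 8 in FAMA-LGK (20.0%; background 24.4%). Of the 40 genes, 8 were called in both genotypes (20.0%, background 23.1%) and 2 in WT alone (5.00%, background 1.39%). None was called in FAMA-LGK alone (background 1.37%). Of all 6710 protein-coding genes called for H3K27me3 in WT, 6329 were called in both. The H3K27me3 shares called in each genotype thus stood near the background.

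Taken by gene, the family had 1 gene with both marks and a large group with neither. In WT, 9 members had H3K27me3 alone (background 19.5%), 13 had H3K4me3 alone (background 57.3%), 1 had both marks (background 4.97%) and 17 had neither, or 42.5% (background 18.3%). In FAMA-LGK, 8 had H3K27me3 alone (background 19.9%), 20 had H3K4me3 alone (background 57.7%), none had both marks (background 4.51%) and 12 had neither, or 30.0% (background 17.9%). No member went from H3K27me3 alone to H3K4me3 alone (background 0.131%) or the reverse (background 0.153%). Both changes were rare among all genes. The 6 genes called for H3K4me3 in FAMA-LGK alone had neither mark called in WT. They went to H3K4me3 alone, a change seen at 15.0% of the members (background 1.17%).

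**Figure D1:**
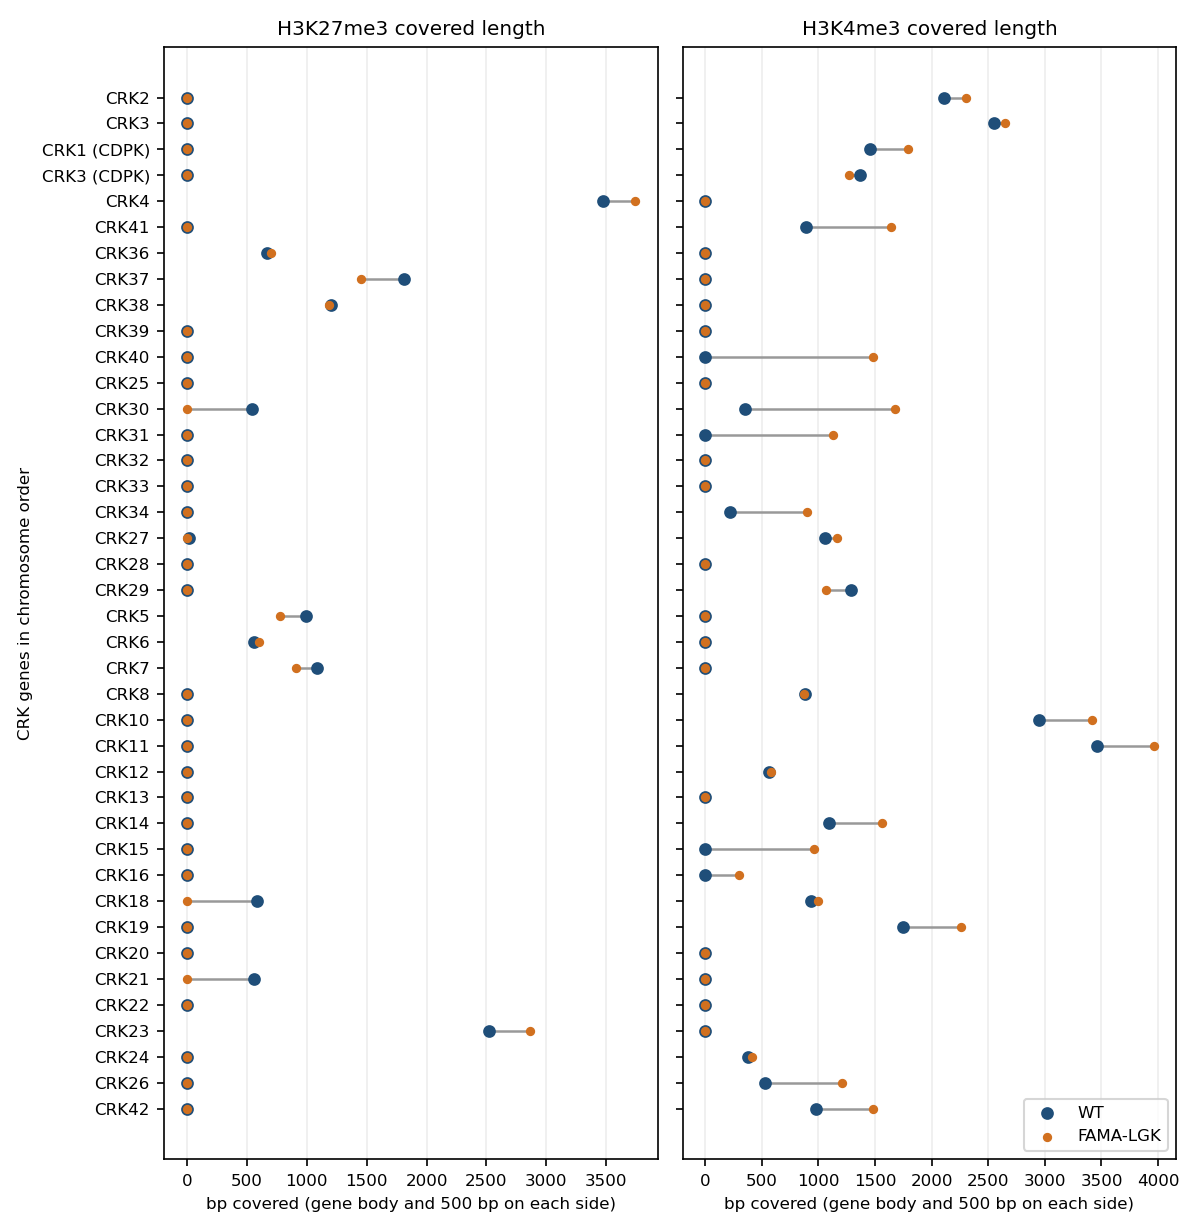
Covered length in bp (x axes, left H3K27me3, right H3K4me3) of the 40 CRK genes in chromosome order (y axis), with WT in blue and FAMA-LGK in orange and a grey line joining the values of a gene. Orange lies to the right of blue for 20 of the 23 genes with any H3K4me3 coverage, and long H3K27me3 stretches are seen at CRK4 and CRK23.

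The first question was at which receptor genes the active mark differs between the genotypes. The genes called in FAMA-LGK alone were CRK40, CRK30, CRK31, CRK34, CRK15 and CRK26, all cysteine-rich members on chromosome 4. CRK40 (AT4G04570) had 0 bp of covered length in WT and 1483 bp in FAMA-LGK, from a peak at chr4:2290010-2291492 (TAIR10) with a fold of 3.11. The fold is the authors' enrichment of ChIP over control at that peak. This peak lay inside the gene body, and neither neighbouring gene had H3K4me3 in its body in either list.

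CRK30 (AT4G11460) and CRK31 (AT4G11470) are adjacent, and both were called in FAMA-LGK alone. CRK31 had 0 bp in WT against 1132 bp in FAMA-LGK, at chr4:6967649-6968780 with a fold of 2.51. CRK30 had 350 bp in WT, all of it outside the body, and 1675 bp in FAMA-LGK, nearly all from a pair of weak peaks with folds of 1.79 and 1.78. The rest came from the edge of the CRK31 peak, which reached the flank of CRK30. Over the first of these, the WT H3K27me3 list had a peak of 545 bp (chr4:6963114-6963658, fold 2.04) that reached 138 bp into the body, just under the 150 bp required. The FAMA-LGK list had no H3K27me3 within 500 bp of CRK30. CRK30 is thus the member nearest to a change of both calls, although its H3K27me3 was not called. The WT H3K4me3 list also had a peak there (chr4:6962978-6963370, fold 1.72), which overlapped the WT H3K27me3 peak in part. Both marks were thus already listed at that place in WT.

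CRK34 (AT4G11530) had 214 bp of H3K4me3 in WT, all outside its body, and 901 bp in FAMA-LGK, with a peak at chr4:6986715-6987533 and a fold of 2.00. Its neighbour AT4G11521, 18 bp away, was called in both genotypes with 965 bp of its body covered in WT and 1008 bp in FAMA-LGK. CRK26 (AT4G38830) had 532 bp in WT against 1207 bp in FAMA-LGK. The WT peak covered all 582 bp of the neighbour AT4G38840, 34 bp away, and reached 32 bp into CRK26. The FAMA-LGK peak at chr4:18124237-18125677 (fold 2.26) reached 707 bp into it. In CRK26 and CRK34 the coverage thus lay at the end that faces a gene marked in both genotypes.

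CRK15 (AT4G23230) had 0 bp in WT against 959 bp in FAMA-LGK, at chr4:12159321-12160279 with a fold of 2.20. Its neighbour CRK14 was called in both, and its other neighbour CRK16 in neither. All 6 genes rest on weak peaks: the strongest peak of each lay in the lowest 25% of its list by −log10 q. So did the strongest peak of 87.2% of all genes called for H3K4me3 in FAMA-LGK alone. Given the ranks of their peaks, none of the 6 calls could be left when each list was limited to its upper 50% by −log10 q. With the body and its 500 bp flanks, CRK30, CRK34 and CRK26 were called in both genotypes, and CRK40, CRK31 and CRK15 in FAMA-LGK alone.

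Among the 14 genes with H3K4me3 calls in both genotypes, 11 had a longer covered length in FAMA-LGK and 3 a shorter one. Of all genes called in both, 56.6% had a longer one. The median change of the 14 was 265.5 bp, against 17.0 bp for all genes called in both. With gaps of up to 500 bp between peaks merged, 9 were longer, 4 shorter and 1 equal, and the median change was 103 bp, against 16.0 bp for all genes. CRK41 (AT4G00970) had the longest change, from 888 bp in WT to 1641 bp in FAMA-LGK. CRK42 (AT5G40380) went from 976 to 1482 bp and CRK19 (AT4G23270), whose overexpression is known to cause cell death, from 1751 to 2256 bp. CRK14 (AT4G23220) went from 1092 to 1564 bp. The exceptions were CRK29 (AT4G21410), which is known to act with the flagellin receptor complex, at 1285 and 1070 bp, CRK8 at 885 and 875 bp, and the CDPK-related CRK3 (AT2G46700) at 1365 and 1274 bp. The CRK29 peak, 1712 bp wide in WT and 1526 bp in FAMA-LGK, had its summit outside the gene in both lists. It covered 785 and 570 bp of the CRK29 body.

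The longest H3K4me3 stretches lay on CRK10 (AT4G23180) and CRK11 (AT4G23190), neighbours whose annotated bodies overlap. Gain of function in CRK10 is known to cause dwarfing and defence responses. CRK10 had 2944 bp in WT against 3413 bp in FAMA-LGK, and CRK11 had 3461 and 3960 bp. In WT they had separate peaks at chr4:12137988-12140497 (fold 6.95) and chr4:12140997-12145101 (fold 8.14), with 499 bp between them. In FAMA-LGK a single peak of 7095 bp ran over both genes (chr4:12138018-12145112, fold 6.14). It was the widest of the 15989 peaks of its list. The gain at this pair is the filled gap: with gaps of up to 500 bp merged, the region was 7114 bp in WT against 7095 bp in FAMA-LGK. On that scale 9 regions in WT and 6 in FAMA-LGK were at least as wide.

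CRK2 (AT1G70520) and CRK3 (AT1G70530) form a pair on chromosome 1 and stand outside the arrays of chromosome 4. CRK2 is known to regulate the NADPH oxidase RBOHD in immunity. CRK2 had 2105 bp of H3K4me3 in WT against 2305 bp in FAMA-LGK, and CRK3 had 2547 and 2645 bp. Their peaks had folds of 6.95 and 7.25 in WT and 6.15 and 6.71 in FAMA-LGK, above the list medians of 5.04 and 4.58. The CDPK-related CRK1 (AT2G41140) had 1457 and 1788 bp. CRK27 (AT4G21230) had 1058 and 1166 bp and CRK18 (AT4G23260) 933 and 995 bp.

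Counting all members with any H3K4me3 coverage in either list, 20 of 23 were longer in FAMA-LGK and 3 shorter. The median change was 469 bp, with a range from -215 to 1483 bp. Of the 23, CRK40, CRK31, CRK15 and CRK16 had 0 bp in WT, so they could only be longer. The 302 bp of CRK16 in FAMA-LGK came from the edge of the CRK15 peak. Of all 19322 genes with coverage, 55.4% were longer, and their median change was 13.0 bp. A change of over 400 bp towards FAMA-LGK was seen at 12 of the 23 (52.2%) and at 5.88% of all covered genes. That limit was chosen after the values were seen. The 12 include every member called in FAMA-LGK alone. With gaps of up to 500 bp merged, such a change was seen at 10 of the 23 (43.5%) and at 6.39% of all covered genes. The median of 469 bp is the value of CRK10, and with gaps merged 18 of the 23 were longer and the median was 302 bp, against 13.0 bp for all covered genes. Among the 7 members called in both whose strongest peaks averaged above the 75th percentile of the lists, the median change was 331 bp, the value of the CDPK-related CRK1; the CDPK-related CRK3 is also among these 7. With gaps merged, CRK10 changed by -30 bp and CRK11 by 0 bp, and the median of the 7 was 98.0 bp. In the 5 members below the 25th percentile it was 108 bp with or without merging. The 2 between, CRK29 and CRK42, changed by -215 and 506 bp. By the same split and without merging, all genes called in both had median changes of 20.5 bp (highest 25%), 13.0 bp (between) and 23.0 bp (lowest 25%). Genes of an array are not independent of each other, so the 23 are fewer separate observations than they seem.

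**Figure D2:**
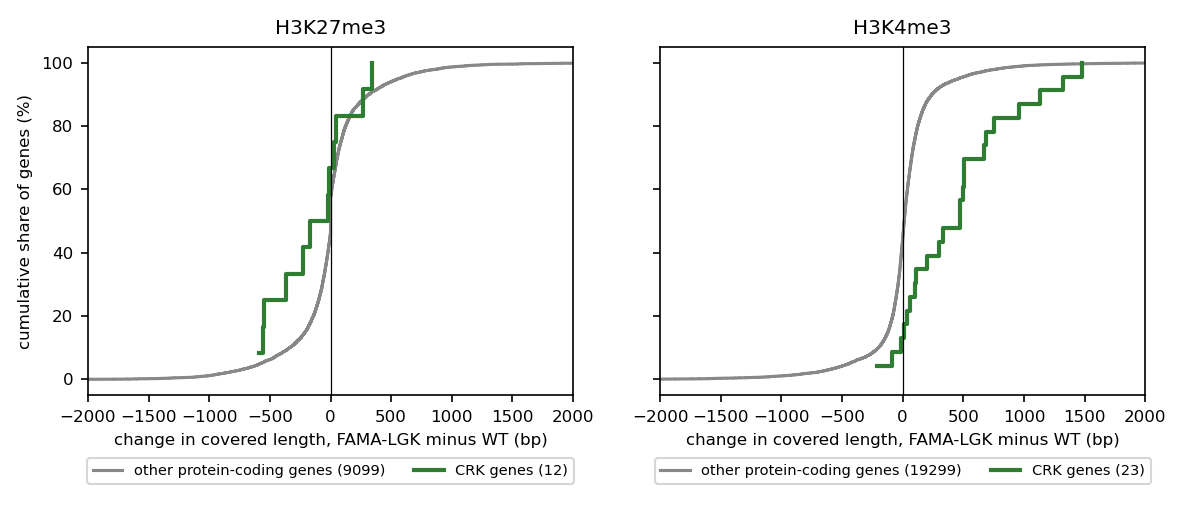
Cumulative share of genes in percent (y axis) against the change in covered length, FAMA-LGK minus WT in bp (x axis), for H3K27me3 (left) and H3K4me3 (right). Green is the CRK genes with coverage in either list (12 and 23 genes) and grey all other protein-coding genes with coverage; the green H3K4me3 line lies to the right of the grey one, with medians of 469 bp and, over all genes, 13.0 bp.

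The H3K27me3 comparison asked which receptor genes carry the Polycomb mark in each state. CRK4 (AT3G45860) on chromosome 3, known to cause cell death when overexpressed, had the longest and strongest stretch. Its covered length was 3475 bp in WT against 3741 bp in FAMA-LGK, and the peaks covered 96.1% and all of its body. The peak had a fold of 5.10 in WT (chr3:16863213-16866687) and 5.36 in FAMA-LGK. CRK4 had no H3K4me3 in either list and was the only member whose H3K27me3 peak lay in the highest 25% of its list, in both genotypes.

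The other H3K27me3 genes were covered over part of their bodies by weaker peaks. CRK23 (AT4G23310) had 2523 bp in WT against 2866 bp in FAMA-LGK, as a single peak in WT and a pair of peaks in FAMA-LGK. CRK37 (AT4G04500) had 1814 and 1451 bp and CRK38 (AT4G04510) 1206 and 1182 bp. CRK36 (AT4G04490), known to act in abscisic acid and osmotic stress responses with ARCK1, had 672 and 703 bp. CRK5, CRK6 and CRK7, neighbours at one end of the largest array, each had a short peak near the lower-coordinate end of the body. CRK5 (AT4G23130), another gene known to cause cell death when overexpressed, had 998 bp in WT against 774 bp in FAMA-LGK. CRK6 (AT4G23140) had 558 and 603 bp and CRK7 (AT4G23150) 1083 and 914 bp; both are known to protect against extracellular oxidative stress.

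Over the 8 genes called for H3K27me3 in both genotypes, 4 were longer in FAMA-LGK and 4 shorter, and the median change was 3.5 bp, against 0 bp for all genes called in both, of which 39.5% were longer. Peaks covered a median of 38.0% of the body in WT, where the median of all genes called in both was 95.6%. In FAMA-LGK the values were 35.1% and 95.2%. CRK23 was covered over 70.2% of its body in WT and 79.8% in FAMA-LGK, and CRK37 over 69.7% and 56.4%. CRK5, CRK6, CRK7, CRK36 and CRK38 were each covered over a smaller share than CRK37 in both. In bp, the median body coverage in WT was 1081 for the members and 1242 for all genes called in both. The 40 members have a median length of 2958 bp, against 2078 bp for all protein-coding genes, so shares of the body are not like for like. With at least 50% of the body required, 3 genes were called in both. Of the 12 members with any H3K27me3 coverage, 8 were shorter in FAMA-LGK and 4 longer, with a median change of -96.5 bp. Among these, CRK18, CRK21, CRK27 and CRK30 had 0 bp in FAMA-LGK, so they could only be shorter. Of all covered genes, 42.5% were longer.

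The 2 genes called for H3K27me3 in WT alone were CRK18 and CRK21, in the largest array. CRK18 had 587 bp in WT against 0 bp in FAMA-LGK, at chr4:12169406-12169992 with a fold of 1.84. CRK21 (AT4G23290) had 559 bp in WT against 0 bp in FAMA-LGK, at chr4:12180321-12180879 with a fold of 1.91. Both peaks lay in the lowest 25% of their list, as did the strongest peak of 70.3% of all genes called for H3K27me3 in WT alone. CRK18 was the member with both marks in WT. Its H3K27me3 peak lay wholly within its H3K4me3 peak of 748 bp, and the H3K4me3 peak was kept in FAMA-LGK with 769 bp. The lists cannot tell both marks in the same cell from a mixture of cells.

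The members are unevenly spread: 34 of the 38 cysteine-rich genes are on chromosome 4. Joining members less than 20000 bp apart gave 5 arrays with 31 genes and 7 single genes. The largest array runs from CRK5 to CRK24 over 74.2 kb, with 18 members and also EP1 and EMB1290. In it, H3K27me3 was called at 6 of the 18 members in WT and 4 in FAMA-LGK (background 24.4% in each genotype). H3K4me3 was called at 6 and 7 (background 62.2% in each genotype), and 6 members had neither mark in both genotypes (background 16.3%). The marked genes formed a patchwork. CRK5 to CRK7 had H3K27me3, CRK8 a weak H3K4me3 peak, and CRK10 and CRK11 the wide H3K4me3 stretch. CRK14 and CRK18 had weak H3K4me3 peaks, CRK19 a stronger one and CRK23 H3K27me3. The H3K4me3 peaks called weak here lay in the lowest 25% of the list in both genotypes.

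Both marks were listed over one another at a pair of places in this array, in both genotypes. One was EP1, where the H3K27me3 and H3K4me3 peaks of 864 and 875 bp overlapped by 834 bp in WT, and those of 834 and 1023 bp by 834 bp in FAMA-LGK. The other lay between CRK13 and CRK14, where the gene table has a transcribed pseudogene, AT4G23215. There the overlap was 805 bp in WT against 597 bp in FAMA-LGK. The H3K27me3 peak there was 1022 bp wide in WT against 597 bp in FAMA-LGK, and the H3K4me3 peak 859 and 1351 bp. EMB1290, beside CRK18, had 1602 bp of H3K4me3 in WT and 1722 bp in FAMA-LGK.

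**Figure D3:**
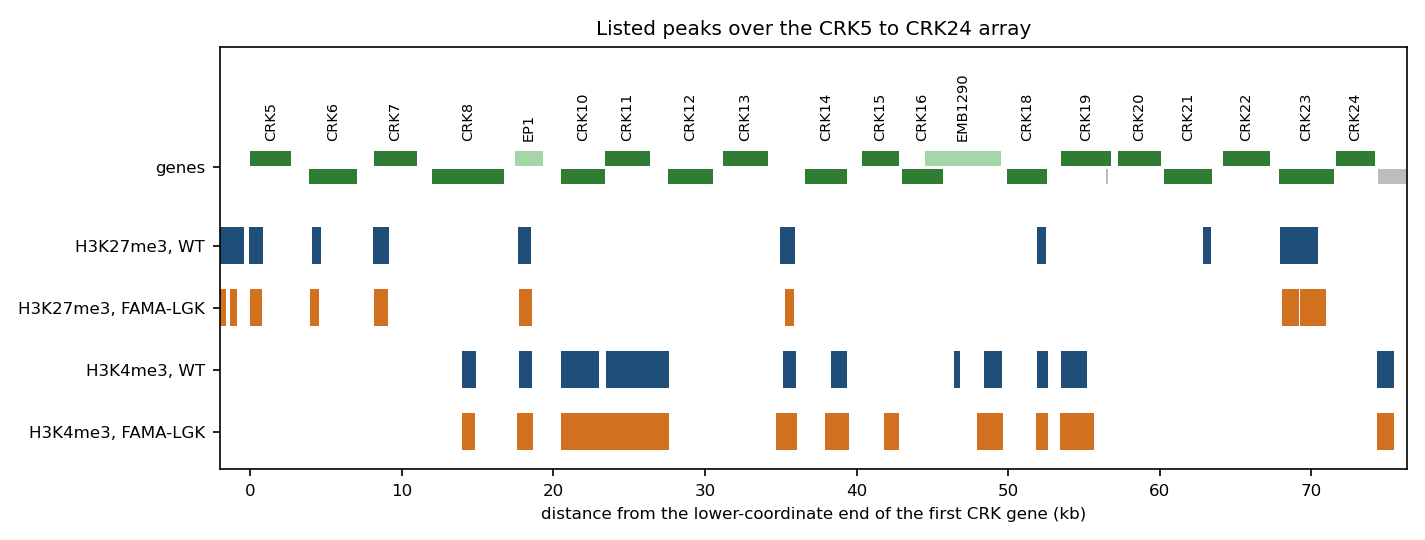
Map of the CRK5 to CRK24 array, with distance in kb from the lower-coordinate end of CRK5 on the x axis. Green boxes are CRK members, pale green EP1 and EMB1290, grey other genes; blue (WT) and orange (FAMA-LGK) boxes are the listed peaks of each mark. The H3K4me3 peaks over CRK10 and CRK11 are separate in WT and a single peak of 7095 bp in FAMA-LGK.

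The smaller arrays hold few genes each and differed in the mark called. In the CRK30 to CRK34 array of 26.3 kb, no member was called for either mark in WT, and 3 of 5 were called for H3K4me3 in FAMA-LGK; CRK32 and CRK33 had neither mark in both. In the CRK36 to CRK39 array, 3 of 4 members were called for H3K27me3 in both genotypes and none for H3K4me3. CRK40, the next gene of the family but beyond the 20000 bp limit, had H3K4me3 in FAMA-LGK alone. Over all protein-coding genes, 18.3% had neither mark in WT and 23.1% were called for H3K27me3 in both genotypes. For H3K4me3, 62.2% were called in FAMA-LGK, and 1.99% in FAMA-LGK alone. CRK28 (AT4G21400), known to act in immunity with the flagellin receptor complex, had neither mark within 500 bp. Its neighbour CRK29 was called for H3K4me3 in both genotypes, from a peak with its summit outside the gene.

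**Figure D4:**
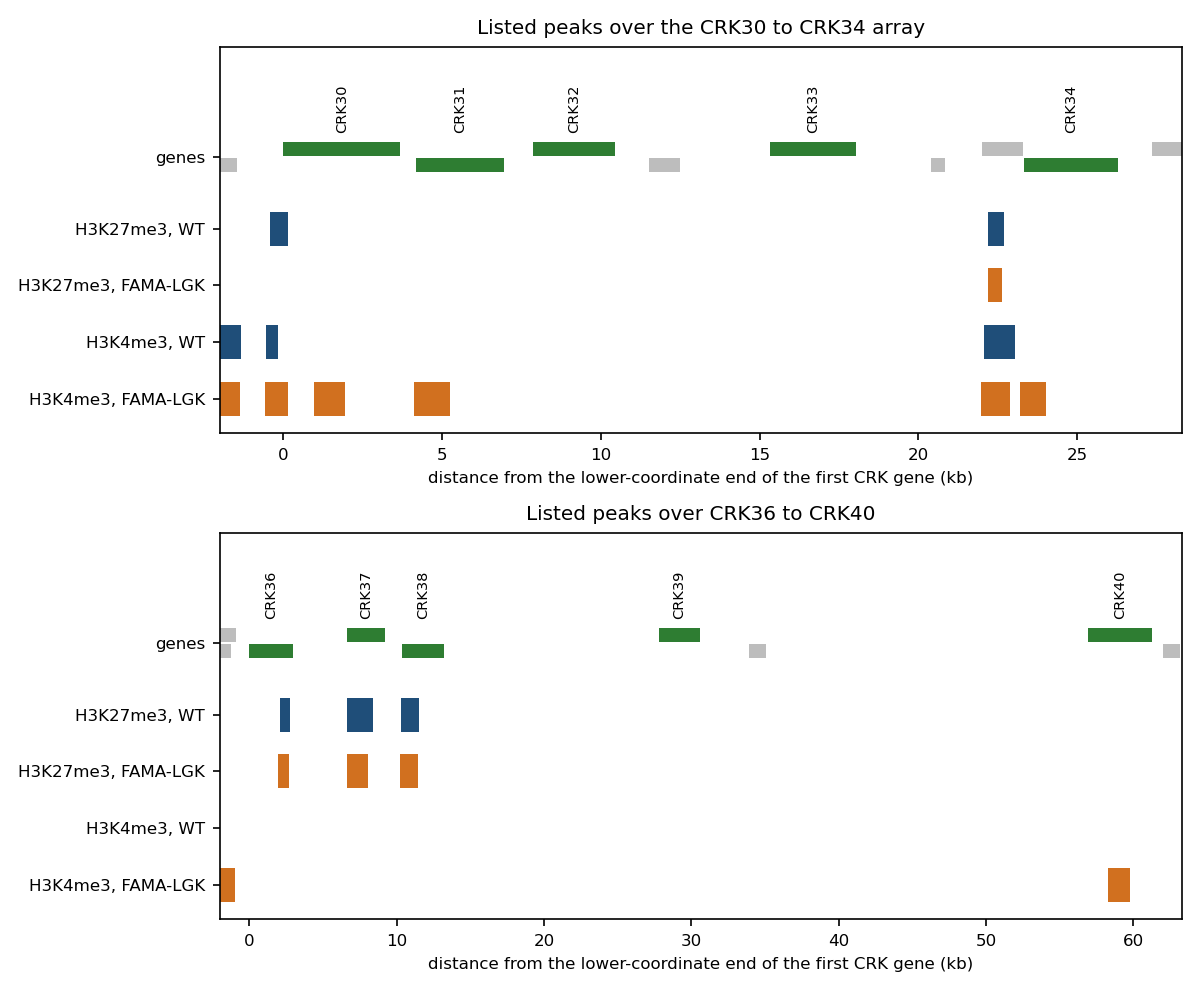
Listed peaks over the CRK30 to CRK34 array (top) and over CRK36 to CRK40 (bottom), drawn as distance in kb from the lower-coordinate end of the first CRK gene. Boxes are CRK members (green), other genes (grey), WT peaks (blue) and FAMA-LGK peaks (orange); H3K4me3 peaks in the bodies of CRK30, CRK31, CRK34 and CRK40 appear in the FAMA-LGK rows, and H3K27me3 peaks on CRK36, CRK37 and CRK38 in both.

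Of the 40 genes, 29 were called in at least 1 list and 11 in none (27.5%, background 16.3%). The 11 were CRK12, CRK13, CRK16, CRK20, CRK22, CRK24, CRK25, CRK28, CRK32, CRK33 and CRK39. Of these 11, 8 had no coverage within 500 bp in any list. CRK13 and CRK20 are among these 8; the first is known for raised pathogen resistance and cell death when overexpressed, and the second causes cell death when overexpressed. CRK12 lay just outside the limit, with 67 bp (WT) and 78 bp (FAMA-LGK) of its body reached by the wide H3K4me3 peak of CRK11. Among called genes the smallest body coverage was 558 bp, at CRK6 for H3K27me3 in WT, so no called member stood near the limit of 150 bp. Tandem copies can be alike in sequence, which can remove reads that map to several places. How such reads were treated is not given in the sources used here, and the part of this in the 11 unlisted genes was not tested. Of the 4 genes with a CRK synonym, RKF2 had no coverage in any list and ARCK1 had H3K27me3 only beside its body, with 370 bp in WT against 298 bp in FAMA-LGK.

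Peak strength split the H3K4me3 genes into a strong and a weak group. In WT, 6 of 14 H3K4me3 peaks on members lay in the highest 25% of the list and 6 in the lowest 25%. In FAMA-LGK, where the list holds CRK10 and CRK11 as a single peak, 7 of 20 lay in the highest 25% and 12 in the lowest. The CDPK-related CRK1 and CRK3 are 2 of the strong peaks in each genotype. Without them, 4 of 12 in WT and 5 of 18 in FAMA-LGK lay in the highest 25%. The median H3K4me3 fold on the cysteine-rich members was 3.98 in WT and 2.82 in FAMA-LGK, against list medians of 5.04 and 4.58; with the CDPK-related genes it was 5.09 and 3.04. Among H3K27me3 peaks, none of them on a CDPK-related gene, 6 of 10 in WT and 5 of 9 in FAMA-LGK lay in the lowest 25%. Their median folds were 2.02 and 2.14, against 2.90 and 2.98 for the lists.

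**Figure D5:**
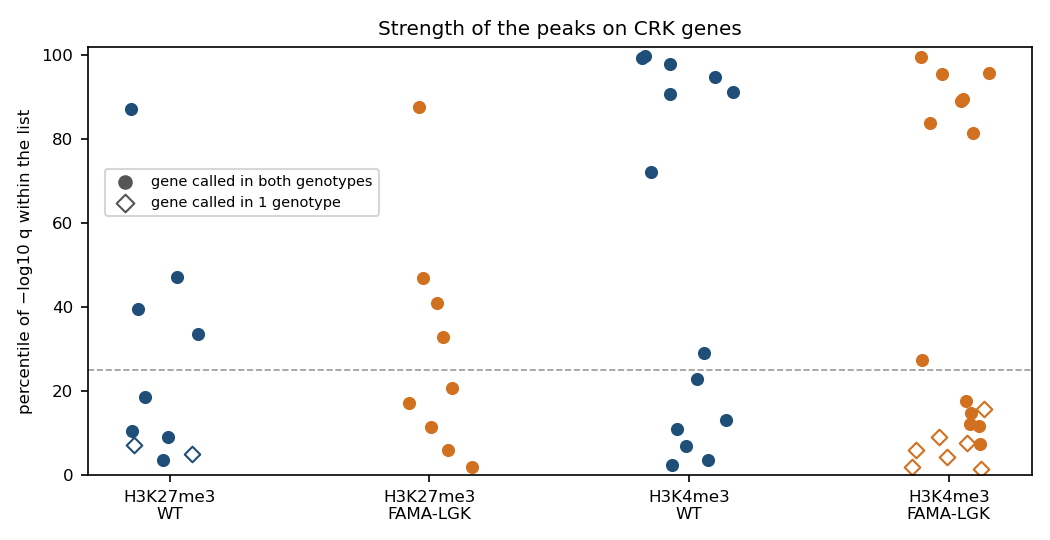
Percentile of −log10 q within its own list (y axis) for each peak that covers at least 150 bp of a CRK gene, in the 4 lists (x axis; points are spread sideways for visibility). Filled circles are peaks at genes called in both genotypes and open diamonds peaks at genes called in 1 genotype; the dashed line marks 25%, and every diamond lies below it.

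Other receptor and defence genes give the surroundings of the family. Of 25 genes of pattern-triggered immunity, 24 carried H3K4me3 calls in both genotypes and none in 1 alone. Of these 24, 21 had a longer covered length in FAMA-LGK and 3 a shorter one, with a median change of 139 bp. Over all genes called in both, 56.6% were longer and the median was 17.0 bp. Among the CRK genes called in both, 11 of 14 were longer, with a median of 265.5 bp, or 103 bp with gaps merged. A longer covered length in FAMA-LGK was thus not particular to the CRK genes. WRKY33, a defence transcription factor gene, had 3046 and 3048 bp, the kinase gene BIK1 2578 and 2661 bp, and the lipid receptor gene LORE 2467 and 2205 bp. The longest gains, noted after the values were seen, were at the Pep receptor gene PEPR1 (2382 and 4492 bp) and at RBOHD (1432 and 3343 bp). The receptor gene DORN1 had neither mark. H3K27me3 was called at RBOHD (995 and 760 bp) and RBOHF (1721 and 1831 bp) and at none of the other 23.

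The plasmodesmata-located proteins share the DUF26 domain but have no kinase. Of their 8 genes, 5 were called for H3K27me3 and 6 for H3K4me3, in both genotypes each time, and 3 had both marks. PDLP4 had 2199 and 2065 bp of H3K27me3, PDLP7 2168 and 2645 bp, and PDLP5 1387 and 736 bp. Of 5 wall-associated kinase genes, which also stand in an array, WAK2 alone was called, for H3K4me3 with 1277 and 1305 bp. Of 12 wounding and protoplasting response genes, 10 had H3K4me3 calls in both genotypes and WRKY30 in WT alone (1665 and 0 bp); their median change was 21.5 bp. ERF104 was called for H3K27me3 in WT alone (803 and 289 bp).

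Other families with tandem copies were counted the same way. H3K4me3 was called in FAMA-LGK alone at 6 of 49 serine carboxypeptidase-like genes (12.2%), 14 of 219 cytochrome P450 genes (6.39%) and 3 of 58 UGT glucosyltransferase genes (5.17%). In WT alone it was called at none, 6 and 8 of these. Over genes with coverage in either list, the median change in H3K4me3 covered length was 56.0, 30.0 and 36.5 bp. For the CRK genes it was 469 bp, or 302 bp with gaps merged. Among genes called in both genotypes it was 7.0, 31.5 and 84.0 bp. The CRK genes called in both had 265.5 bp, or 103 bp with gaps merged. Gaps were not merged for the other families. No test of these differences was possible.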

How the data were processed

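ChIP-seq peak lists were used, 1 for each of 2 marks in each of 2 genotypes; per the labels, a list belongs to 2 ChIP libraries and 2 inputs. The submitters' processing notes list CASAVA 1.8.2, Bowtie2, MACS2 and TAIR10 but give no roles or settings, and how replicates were combined is not given in the sources used here. The deposited lists give each peak's fold (a ratio of ChIP over control), its −log10 p and −log10 q, a summit and a score; the score and the p were not used. These authors' values only describe, rank or filter peaks within a list.

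Touching peaks were merged and bp counted with Python 3.11.15 and numpy 2.4.6; coverage was tested on simulated data. Gene positions and symbols came from a RefSeq table of TAIR10.1, which gives no strand. In 20 chromosome segments, 92.1 to 98.2% of WT H3K4me3 summits lay inside genes, and no shift of up to 3000 bp gained over 0.165 percentage points. Coordinates given are of peaks, counted from 1.

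Every member is accounted for. Values are given in full for members called in 1 genotype alone, those with both marks, the longest stretches and changes of each mark, and CRKs with published roles. Members and lists were chosen with earlier results of these data known. Alternatives were other coverage rules, peak thresholds and member sets.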

Additional observations from a re-analysis of the deposited data

How the results depend on the processing

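No paired analysis was possible because replicates of a mark and genotype share 1 list; leaving out a replicate was not possible for the same reason. Of 155 values under alternatives, 124 stayed within 1.5 times the reported value and 31 moved further; none changed sign. With at least 50% of the body required, H3K27me3 was called at 3 members in both genotypes and 0 in WT alone, and H3K4me3 at 5 in both and 1 in FAMA-LGK alone; H3K27me3 alone, H3K4me3 alone, both marks and neither then held 3, 5, 0 and 32 members in WT, and 3 alone, 6 alone and 31 with neither in FAMA-LGK. Keeping the upper 50% of each list by −log10 q, H3K27me3 was called at 1 in both and 0 in WT alone, and H3K4me3 at 7 in both and 1 in FAMA-LGK alone. This last gene, CRK42, was called in both with all peaks. The states then held 1, 7, 0 and 32 members in WT, and 1 with H3K27me3 alone, 8 with H3K4me3 alone and 31 with neither in FAMA-LGK. These settings keep fewer or longer stretches by construction. The median change in H3K27me3 covered length was -16.0 bp with these peaks, -196.5 bp with equal numbers of peaks and -51.0 bp with the genes named CRK by synonym added and the CDPK-related ones left out (chosen after seeing the data). The H3K4me3 median was 226 bp with the 50% highest peaks and 302 bp when peaks up to 500 bp apart were joined. With a summit required inside the gene, H3K4me3 was called at 1 member in WT alone, CRK11, whose peak in FAMA-LGK has its summit outside the gene. Genes with both marks in WT numbered 2 with 500 bp flanks, and with the synonym genes 2 in WT and 1 in FAMA-LGK. The cause of these moves was not tested. Both of the stricter settings lost all 6 H3K4me3 calls of FAMA-LGK alone and both H3K27me3 calls of WT alone. This was fixed in advance, as their peaks lay in the lowest 25% and covered at most 39.1% (H3K4me3) and 22.0% (H3K27me3) of the body. Peak strengths without the CDPK-related genes, and changes with joined peaks for genes called in both and by strength, were chosen after seeing the data. Arrays numbered 5 with either distance. The searches for cysteine motifs in proteins and W-boxes in promoters were not run, and sequences were not used here. Depth is unknown.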
